A study of Mus musculus with 100 samples.

Results

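The 36 genes described here are a list of hypoxia-response and glycolysis genes, and all of them were found among the 23109 gene-level entries of every RNA table in the series. The list was selected on whole-embryo expression: it was proposed with the comparison of KI and control embryos at E9.5 in these data already known, Ppp1r3c and Bhlhe41 being among the most raised genes there. That comparison is therefore given as a description, with no p-value, and the count of members past the threshold is printed only beside the share over all genes, with nothing read from it. By role the list holds 7 genes of oxygen sensing and transcription, 2 glucose transporters, 11 glycolytic enzymes, 3 regulators of glucose use, 3 genes of mitochondria and energy, 2 carbonic anhydrases, 3 enzymes of collagen modification, 3 secreted factors and 2 stress-response genes.

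The study concerns MLL3 and MLL4, related methyltransferases that place marks on histone H3 at enhancers and are encoded by Kmt2c and Kmt2d. Of 38 samples labelled RNA, 37 libraries of 18 groups are used, from whole mouse embryos and from cultures grown from embryonic stem cells (ESCs). Cultured cells were Mll3-/-;Mll4flox/flox (called flox) or Mll3-/-;Mll4KI/KI (called KI), so both lack MLL3. KI cells were clones 27 and 48. Control embryos were Mll3flox/KI;Mll4flox/+;Sox2-Cre and KI embryos Mll3flox/KI;Mll4flox/KI;Sox2-Cre, so every embryo carried Sox2-Cre and 1 Mll3 KI allele, and the groups differed in the second Mll4 allele. Sox2-Cre acts in the cells of the embryo proper and not in trophoblast or primitive endoderm. The labels do not spell out KI. Embryos were taken at E8.5 and E9.5 (3 libraries a group). ESCs in 2i medium with LIF and embryoid bodies (EBs, floating aggregates that differentiate) were taken at days 0, 4 and 10 (1 flox library and both clones a day), and neural cultures treated with retinoic acid were taken as progenitors at day 8 and as neurons at day 16. Trophectoderm-like cultures (TE) were driven for 6 days by a doxycycline-inducible CDX2 transgene with FGF4 and heparin, and extraembryonic endoderm-like cultures (ExEn) by retinoic acid and activin A for 5 days. The neural, TE and ExEn groups had 2 libraries each.

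Cells sense oxygen through the prolyl hydroxylases of the Egln family, which use oxygen to mark the alpha subunits of hypoxia-inducible factor (HIF) for destruction. When oxygen is short HIF accumulates, pairs with ARNT and binds the core letters ACGTG or GCGTG near its targets, which include glucose transporters, nearly every glycolytic enzyme, Vegfa and the Egln genes themselves. The early mouse embryo relies heavily on glycolysis, and a working heart and circulation take over oxygen delivery during the stages sampled here. RefSeq start-site windows on GRCm38.p6, each of 300 bases (250 before and 50 after the start), were matched by symbol for 31 of the 36 genes. ACGTG, searched on both strands, stood in at least 1 window of 23 of these 31 (74.2%), against 21.8% of 27025 genes with a window. Taken by window, it stood in 55.3% of 47 member windows and 19.6% of all 32851, and GCGTG in 61.7% and 32.4%. The member windows were also richer in CpG, with a median of 24 CpG each against 7 over all windows. Among windows with a like CpG count, of genes with at least 1 read in the series, ACGTG stood in 28% and GCGTG in 57.5%. The palindrome CACGTG counts on both strands and was in 12.8% of member windows and 7.15% of all. The list was drawn up from hypoxia-response and glycolysis genes, the classes of HIF target named above, so nothing is read from these shares.

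Windows of 6 members are printed: Ppp1r3c, Bhlhe41 and Adm had the largest E9.5 differences, Egln3 was called at E8.5, Bnip3 rose in TE and fell in ExEn cultures, and Ldha held the most copies of ACGTG. Capitals mark ACGTG or its reverse complement, and all run 5′ to 3′ on the gene's strand. They are Ppp1r3c (chr19:36736555-36736854, minus strand), Bhlhe41 (chr6:145865371-145865670, minus), Egln3 (chr12:54203825-54204124, minus), Bnip3 (chr7:138909457-138909756, minus), Ldha (chr7:46845554-46845853, plus) and Adm (chr7:110627407-110627706, plus).
Ppp1r3c: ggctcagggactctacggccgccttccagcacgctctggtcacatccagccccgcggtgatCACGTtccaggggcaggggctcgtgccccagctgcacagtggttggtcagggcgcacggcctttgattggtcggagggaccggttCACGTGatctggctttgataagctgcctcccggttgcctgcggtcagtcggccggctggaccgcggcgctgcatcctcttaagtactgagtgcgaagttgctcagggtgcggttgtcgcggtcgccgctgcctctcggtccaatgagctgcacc
Bhlhe41: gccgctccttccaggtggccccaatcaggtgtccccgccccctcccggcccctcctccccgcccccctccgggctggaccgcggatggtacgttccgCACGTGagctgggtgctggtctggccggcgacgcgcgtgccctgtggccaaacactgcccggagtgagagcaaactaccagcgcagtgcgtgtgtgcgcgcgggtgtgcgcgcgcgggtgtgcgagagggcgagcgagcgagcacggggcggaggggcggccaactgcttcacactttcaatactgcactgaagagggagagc
Egln3: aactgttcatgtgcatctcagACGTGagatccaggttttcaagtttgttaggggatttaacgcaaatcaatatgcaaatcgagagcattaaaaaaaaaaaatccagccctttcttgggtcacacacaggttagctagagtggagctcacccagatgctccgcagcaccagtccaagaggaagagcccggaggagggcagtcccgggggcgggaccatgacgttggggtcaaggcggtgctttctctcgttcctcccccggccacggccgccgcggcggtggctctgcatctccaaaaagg
Bnip3: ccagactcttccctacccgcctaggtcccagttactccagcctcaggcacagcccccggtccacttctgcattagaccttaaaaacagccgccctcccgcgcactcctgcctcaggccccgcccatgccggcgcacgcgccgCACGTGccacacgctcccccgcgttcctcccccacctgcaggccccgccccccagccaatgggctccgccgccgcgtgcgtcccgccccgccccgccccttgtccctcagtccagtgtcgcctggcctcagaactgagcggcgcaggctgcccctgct
Ldha: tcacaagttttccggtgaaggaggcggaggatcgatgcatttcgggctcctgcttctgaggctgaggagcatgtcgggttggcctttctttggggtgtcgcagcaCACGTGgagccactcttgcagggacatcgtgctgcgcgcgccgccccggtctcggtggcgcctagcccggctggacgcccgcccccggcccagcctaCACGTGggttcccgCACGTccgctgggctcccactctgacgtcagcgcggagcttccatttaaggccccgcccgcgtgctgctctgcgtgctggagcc
Adm: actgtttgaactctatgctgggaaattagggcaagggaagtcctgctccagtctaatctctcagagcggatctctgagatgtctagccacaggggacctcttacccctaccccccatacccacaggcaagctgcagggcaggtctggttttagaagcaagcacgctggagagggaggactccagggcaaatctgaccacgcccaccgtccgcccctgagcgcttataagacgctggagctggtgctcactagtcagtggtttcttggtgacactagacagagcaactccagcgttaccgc
Ldha held 5 matches, of which 4 formed a pair of CACGTG palindromes. Ppp1r3c held 3 matches, and Bhlhe41 and Bnip3 held 1 palindrome each. Egln3 had 1 match, 229 bases before the start, and Adm had none in its window although GCGTG was present. A match is a run of letters and does not show that a factor binds there.

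Gene-level totals ran from 18.9 M to 59.9 M reads a library. Every member passed the low-count filter in every set of libraries, and adjusted p-values and standard errors (SE) are from edgeR's quasi-likelihood test with Benjamini-Hochberg adjustment over all genes tested. A gene is called at an adjusted p under 0.05. Numbers in brackets after a gene, with or without an SE, are log2 fold changes unless another unit is named. The labels do not say that libraries of a group came from separate cultures, so p-values measure only the spread between these samples. Values below are CPM, counts scaled to library size with trimmed-mean (TMM) factors within each set of libraries fitted together. Levels of different genes are compared only as RPKM, which divides by length. The genotype labels could not be checked from the counts, since the tables give no allele-specific value: Kmt2c was read at 27.6 to 99.4 CPM in the cultures, all labelled Mll3-/-, and at 33.2 to 63.2 CPM in embryos. Marker lists matched the culture labels in part. The 11 endoderm markers summed to 1939 to 1943 CPM in ExEn flox and 231 to 239 in ExEn KI, where Apoa1 and Ttr were at 0 and all 11 were lower. The 10 trophoblast markers summed to 3045 to 3121 CPM in TE flox, with Prl3d1 and Tpbpa at 0, and 5209.7 to 5521 in TE KI, but also to 3150.5 to 3157 in ExEn flox. Pluripotency markers persisted in TE flox (1210.3 to 1221 CPM, against 380.0 to 547 in TE KI). Neuron markers summed to 2382 to 2391 CPM in day 8 flox and 5348 to 5439 in day 16 flox.

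Among the groups, the E9.5 KI embryos had the highest mean RPKM for 20 of the 36 genes, and the TE groups for 6. Eno1 (enolase) was the most abundant member in E9.5 KI embryos at 2352 RPKM, followed by Gapdh at 1703, Ldha at 1592 and Aldoa at 1239.8. At the other end Car9 stood at 0.726 RPKM there and did not pass 2.60 RPKM in any group. The 11 glycolytic enzymes together took 1.74% of TMM-scaled reads in E8.5 controls, 1.25% in E9.5 controls and 2.06% in E9.5 KI embryos. The share was 0.387% in ExEn KI and 0.399% in day 16 KI neurons. Scaling was done within each set of libraries, so shares of different sets are not ranked. Glucose transporters were led by the TE cultures: Slc2a1 (GLUT1) reached 941 RPKM in TE KI and Slc2a3 (GLUT3) 803 in TE flox, while day 16 KI neurons had 6.66 and 28.9. Some members were highest outside these groups: Hk1 in day 16 neurons (81.8 RPKM in KI and 76.2 in flox), Vegfa in day 10 flox EBs (118), Ddit4 in day 16 flox neurons (309.5), Plod2 in ExEn flox (60.4), and Hk2, Pfkp and Angptl4 in flox ESCs (56.0, 69.5 and 8.97). Gapdh was 37.7 to 97.8 RPKM in the neural tables and at least 473 in every other system. Gapdh, Aldoa, Tpi1, Pgk1, Pgam1, Eno1 and Ldha have near-identical processed copies in the mouse genome, so their counts are uncertain across systems.

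**Figure D1:**
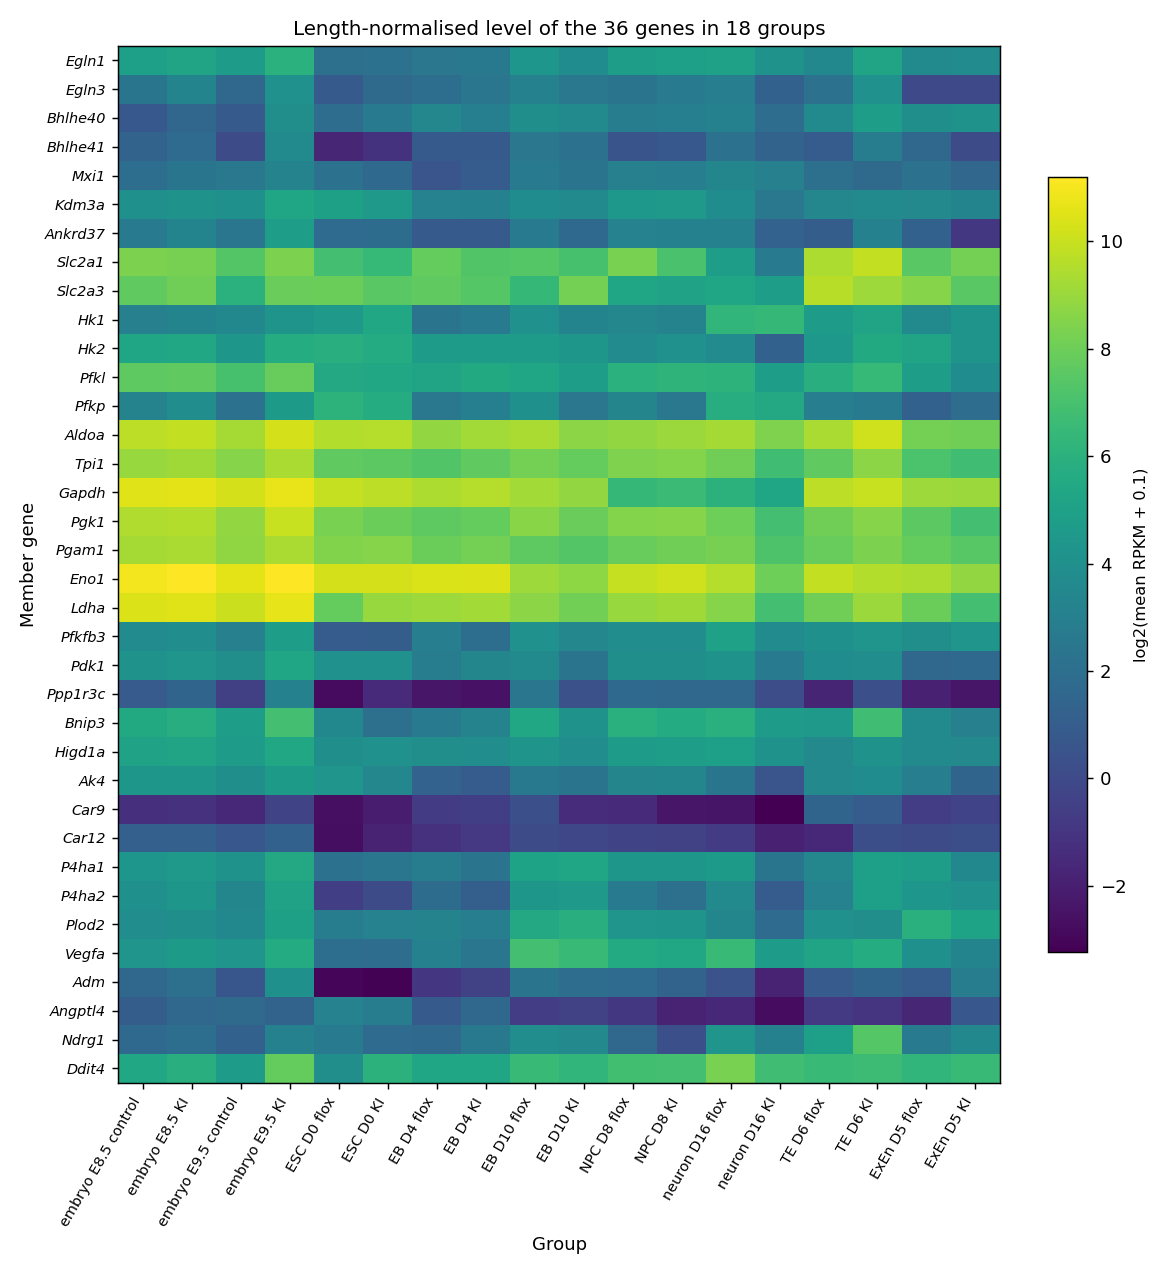
Mean RPKM of the 36 members (rows) in the 18 groups (columns), as log2 of RPKM plus 0.1; yellow is high. The glycolytic enzymes from Aldoa to Ldha and the transporters form the bright bands, the E9.5 KI column is the brightest for 20 genes, and Gapdh is dim in the 4 neural columns.

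In whole embryos at E9.5 the oxygen-sensing and transcription genes were higher in KI than in control embryos, while at E8.5 Egln3 was the 1 of the 7 that passed the test. With the number in the embryo names as a replicate block Bhlhe40 and Mxi1 passed there too. Egln1, the main prolyl hydroxylase that targets HIF, measured, in CPM, 109, 164 and 150.1 in E8.5 controls, 152, 203 and 155 in E8.5 KI, 127, 109 and 108 in E9.5 controls and 266, 269 and 303 in E9.5 KI. Egln3, an inducible member of the same family, measured 12.7, 23.1 and 19.3 in E8.5 controls, 28.8, 39.5 and 32.6 in E8.5 KI, 11.4, 9.65 and 10.0 in E9.5 controls and 55.3, 52.9 and 62.3 in E9.5 KI. Bhlhe40 and Bhlhe41 encode related repressors of transcription: Bhlhe40 measured 2.61, 11.9 and 5.28 in E8.5 controls, 8.30, 15.3 and 10.8 in E8.5 KI, 9.11, 6.77 and 4.13 in E9.5 controls and 58.6, 67.4 and 49.9 in E9.5 KI. For Bhlhe41 the values were 2.61, 7.54 and 3.81 in E8.5 controls, 5.32, 7.45 and 6.01 in E8.5 KI, 2.19, 1.48 and 1.71 in E9.5 controls and 22.4, 26.4 and 16.1 in E9.5 KI. In all 4 genes every E9.5 KI embryo lay above every other embryo of either stage. Ankrd37, an ankyrin-repeat protein known as a hypoxia target, gave 5.46, 12.8 and 6.35 in E8.5 controls, 10.9, 14.9 and 8.99 in E8.5 KI, 6.64, 6.99 and 4.66 in E9.5 controls and 28.8, 33.9 and 35.4 in E9.5 KI. Kdm3a, a histone H3 lysine demethylase, gave 90.2, 107 and 106 in E8.5 controls, 107, 121 and 109 in E8.5 KI, 104, 101 and 84.9 in E9.5 controls and 212, 262 and 226 in E9.5 KI. The E9.5 log2 fold changes were 1.28 for Egln1, 2.46 for Egln3, 3.13 for Bhlhe40, 3.59 for Bhlhe41, 2.42 for Ankrd37 and 1.27 for Kdm3a. Mxi1, an antagonist of Myc, was the smallest of the group at 0.72. Reads of Ankrd37 cannot be told apart from those of Ufsp2, which overlaps it on the opposite strand in RefSeq, because the use of strand is not given in the sources used here.

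Both glucose transporters were higher in the E9.5 KI embryos, at the level seen at E8.5. Slc2a1, the widely expressed transporter, measured, in CPM, 1148, 1124 and 1026 in E8.5 controls, 1088, 1089 and 921 in E8.5 KI, 514, 486 and 586 in E9.5 controls and 1112, 1132 and 1006 in E9.5 KI (E9.5 log2 fold change 1.03). Slc2a3, the high-affinity form, measured 1355, 907 and 1018 in E8.5 controls, 1594, 1255 and 1293 in E8.5 KI, 272, 267 and 420.4 in E9.5 controls and 1185, 1173 and 1247 in E9.5 KI (log2 fold change 1.91). For both the E9.5 controls stood apart below the other 9 embryos.

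All 11 glycolytic enzymes had higher levels in E9.5 KI embryos, by log2 fold changes of 0.46 (Gapdh) to 2.53 (Pfkp). Pfkp, the platelet form of phosphofructokinase, which catalyses the committed step, measured, in CPM, 39.4, 57.6 and 53.0 in E8.5 controls, 61.8, 85.9 and 73.4 in E8.5 KI, 21.9, 20.2 and 22.9 in E9.5 controls and 111, 123 and 141 in E9.5 KI. Hk2, the inducible hexokinase that traps glucose in the cell, measured 253, 339 and 266 in E8.5 controls, 289, 344 and 249 in E8.5 KI, 169, 134 and 146 in E9.5 controls and 372, 369.6 and 331 in E9.5 KI (log2 fold change 1.25). In both genes the E9.5 controls were the lowest of the embryo groups and the E9.5 KI embryos had the highest median. Pgk1, the first ATP-making enzyme of the pathway, measured 1504, 1813 and 1838 in E8.5 controls, 1725, 1859 and 1737 in E8.5 KI, 1182, 1011 and 1007 in E9.5 controls and 2389.5, 2235 and 2396 in E9.5 KI (log2 fold change 1.13). Aldoa (aldolase) measured 1528, 1973 and 1915 in E8.5 controls, 1839, 2114 and 1942 in E8.5 KI, 1351, 1189 and 1157 in E9.5 controls and 2412, 2470.1 and 2615 in E9.5 KI (log2 fold change 1.02). The other 7 (Hk1, Pfkl, Tpi1, Gapdh, Pgam1, Eno1 and Ldha) had log2 fold changes between 0.46 and 0.87, and in each of them the lowest E9.5 KI embryo was above the highest E9.5 control. Reads of Pfkp and Tpi1 are not separable from the opposite-strand genes Pitrm1 and Spsb2.

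Ppp1r3c, a glycogen-targeting phosphatase subunit, had the largest difference of the list, a log2 fold change of 3.83, with, in CPM, 4.56, 9.97 and 4.35 in E8.5 controls, 9.25, 13.4 and 5.06 in E8.5 KI, 2.23, 1.91 and 2.02 in E9.5 controls and 25.3, 30.4 and 32.2 in E9.5 KI. Pfkfb3, which makes the main activator of phosphofructokinase, measured 70.8, 119 and 82.6 in E8.5 controls, 91.7, 109 and 87.5 in E8.5 KI, 62.9, 55.6 and 44.0 in E9.5 controls and 198, 200.2 and 161 in E9.5 KI (log2 fold change 1.78). Pdk1, a kinase that inhibits pyruvate dehydrogenase, measured 87.3, 132 and 139.7 in E8.5 controls, 127, 138 and 133 in E8.5 KI, 113, 92.6 and 79.6 in E9.5 controls and 249, 251 and 252 in E9.5 KI (log2 fold change 1.40). All 3 regulators of glucose use were thus higher, and the E9.5 KI embryos lay above all others. Among the mitochondrial genes, Bnip3, a receptor for the removal of mitochondria, measured 68.4, 134 and 124 in E8.5 controls, 116, 144 and 110.1 in E8.5 KI, 74.96, 55.3 and 51.3 in E9.5 controls and 244, 264 and 272 in E9.5 KI (log2 fold change 2.10). Ak4, a mitochondrial adenylate kinase, measured 127, 163 and 148 in E8.5 controls, 147, 152 and 129 in E8.5 KI, 113, 93.3 and 90.2 in E9.5 controls and 174, 156 and 158 in E9.5 KI (log2 fold change 0.72) and overlapped the E8.5 range. Higd1a, a mitochondrial membrane protein, had a log2 fold change of 0.71.

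The carbonic anhydrases regulate pH outside the cell. Car9 measured, in CPM, 0.501, 1.35 and 0.538 in E8.5 controls, 0.902, 0.754 and 0.948 in E8.5 KI, 0.821, 0.504 and 0.351 in E9.5 controls and 1.27, 2.21 and 1.93 in E9.5 KI (log2 fold change 1.67). Car12 measured 8.42, 16.9 and 7.87 in E8.5 controls, 7.13, 7.59 and 16.8 in E8.5 KI, 6.88, 5.76 and 8.47 in E9.5 controls and 7.31, 7.73 and 17.1 in E9.5 KI (log2 fold change 0.61, with the groups overlapping). Car12 was high in 1 embryo of each of 3 groups. Reads of Car9 are not separable from Arhgef39 and Tpm2, which overlap it on the opposite strand. P4ha1, a catalytic subunit of collagen prolyl hydroxylase, measured 96.4, 128 and 107 in E8.5 controls, 121, 131 and 125 in E8.5 KI, 85.0, 78.2 and 99.8 in E9.5 controls and 211, 219 and 245 in E9.5 KI (log2 fold change 1.36). P4ha2, its relative, measured 38.4, 56.1 and 50.6 in E8.5 controls, 63.2, 66.7 and 61.5 in E8.5 KI, 21.7, 28.9 and 38.2 in E9.5 controls and 93.6, 95.4 and 102 in E9.5 KI (log2 fold change 1.71). Plod2, a collagen lysyl hydroxylase, measured 58.8, 72.0 and 79.8 in E8.5 controls, 74.3, 76.2 and 72.9 in E8.5 KI, 48.2, 51.0 and 57.1 in E9.5 controls and 129, 151 and 161 in E9.5 KI (log2 fold change 1.50). For these 3 enzymes all the E9.5 KI embryos stood above every other embryo.

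The secreted factors did not move as one. Vegfa, the main growth factor for blood vessels, measured, in CPM, 81.7, 102 and 91.2 in E8.5 controls, 107, 125 and 111 in E8.5 KI, 93.3, 84.3 and 88.0 in E9.5 controls and 208, 234 and 226 in E9.5 KI (E9.5 log2 fold change 1.33). Adm, the vascular peptide adrenomedullin, measured 2.71, 8.74 and 4.64 in E8.5 controls, 5.46, 9.34 and 8.22 in E8.5 KI, 2.38, 3.31 and 1.84 in E9.5 controls and 27.8, 33.0 and 24.4 in E9.5 KI (log2 fold change 3.49). Angptl4, a secreted inhibitor of lipoprotein lipase, was the exception and measured 5.11, 5.00 and 4.69 in E8.5 controls, 7.17, 6.37 and 7.95 in E8.5 KI, 7.27, 8.53 and 7.64 in E9.5 controls and 6.70, 5.05 and 6.01 in E9.5 KI (log2 fold change -0.40), with every E9.5 KI embryo below every E9.5 control. Of the stress genes, Ddit4, an inhibitor of mTOR signalling, measured 37.4, 171 and 70.5 in E8.5 controls, 106, 194 and 97.05 in E8.5 KI, 62.5, 55.2 and 52.7 in E9.5 controls and 413, 466 and 532 in E9.5 KI (log2 fold change 3.05). Ndrg1, a gene induced by several stresses, measured 11.2, 12.9 and 12.2 in E8.5 controls, 11.6, 16.6 and 16.3 in E8.5 KI, 7.04, 9.07 and 9.35 in E9.5 controls and 23.0, 30.9 and 40.7 in E9.5 KI (log2 fold change 1.89). Both stress genes were highest in the E9.5 KI embryos, and Ddit4 also varied several-fold among the E8.5 controls.

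As a description, 34 of the 36 members were past an adjusted p of 0.05 at E9.5, all higher in KI, with a median log2 fold change of 1.31; over all genes 29.5% were past it and the median was 0.01. Car12 and Angptl4 were not. The list was chosen on this comparison, so nothing is read from the count. Related genes outside the list, which were also listed with these data known, are described in the same way: 4 of 10 genes of the HIF system, 16 of 22 other hypoxia-response genes and 10 of 26 other glycolysis and pyruvate genes were past the threshold, 26 of these 30 being higher. The largest of the 30 were Stc2 (2.89), a secreted stanniocalcin, Aldoc (2.65), the brain aldolase, Ero1a (1.92), an oxidase of protein folding, and Pgm1 (1.75), a phosphoglucomutase, while Hk3 (-3.08) and Bpgm (-1.39), enzymes of blood cells, were the lowest.

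Markers of several tissues also differed between the E9.5 groups, and in whole embryos fewer cells of a type cannot be told apart from less RNA per cell. The 12 neuron markers summed to 300.3 to 461 CPM in E9.5 controls and 90.3 to 95.9 in KI (10 of 12 lower), the 10 neural progenitor markers to 913 to 1148 and 506 to 619 (9 lower). Erythroid markers summed to 4814 to 13024 and 911 to 4597 (2 of 10 lower), heart markers to 434 to 571 and 1021 to 1962 (7 of 10 higher), and trophoblast markers to 181 to 387 and 593 to 634 (5 of 8 tested higher). Tpbpa was at 0 in both groups and Prl3d1 in the controls. Endoderm markers summed to 127 to 134 and 294 to 462 (Gata6, Gata4 and Sox17 of 11 higher), and endothelial markers to 305 to 336 and 385 to 433 (Kdr, Esam and Tek of 8 higher). The 11 genes of the integrated stress response summed to 706 to 779.9 and 1019.7 to 1099 (9 higher) and the 8 proliferation genes to 3212 to 3279.9 and 2780.4 to 2845 (4 lower). The part of these differences in the members' values was not tested.

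**Figure D2:**
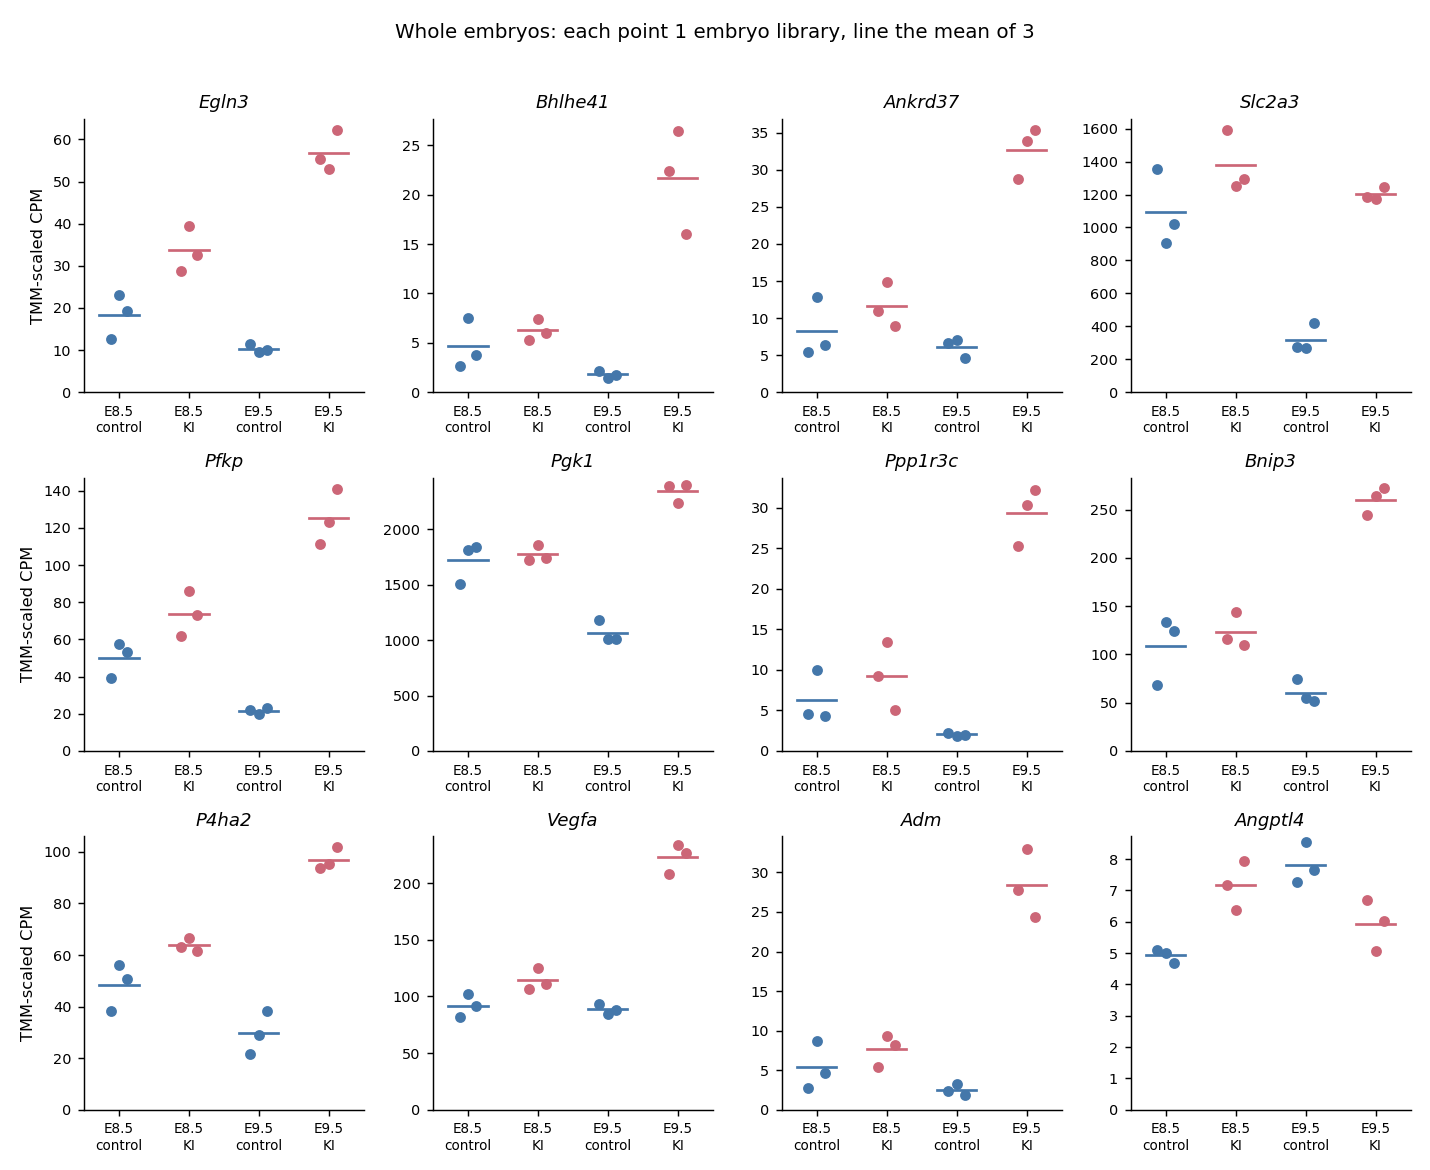
TMM-scaled CPM (vertical axes, from 0) of 12 members in the 4 embryo groups; each point is 1 embryo library, blue control and red KI, and each line the mean of 3. The E9.5 KI points lie above all E9.5 controls in every panel but Angptl4, where they lie below, and at E8.5 the KI and control points overlap in 7 of the 12 panels.

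The E8.5 comparison was tested, but the list was drawn up with earlier results of these data known, so its p-values are not independent of that choice. Egln3 rose by a log2 fold change of 0.87 ± 0.17 (SE, adjusted p = 0.00856), Pfkp by 0.56 ± 0.15 (SE, adjusted p = 0.046) and Vegfa by 0.32 ± 0.08 (SE, adjusted p = 0.0254), all by edgeR's quasi-likelihood test. For Egln3, Pfkp and Vegfa the lowest KI embryo was above the highest control, as the values given earlier show. These 3 were the only members past the threshold, 8.33% of 36 against a background of 5.46% of genes, and 33 of the 36 had a positive log2 fold change with a median of 0.18. Over all genes tested 48% were positive and the median was -0.01. With the number in the embryo names as a replicate block, 7 members passed (Bhlhe40, Mxi1, Eno1 and Ppp1r3c in addition) and 8.45% of genes. Within the 3 same-numbered pairs, KI was above control in 34, 29 and 24 of the 36 members (median log2 ratios of 0.37, 0.11 and 0.12), against 48.7%, 49% and 47.5% of genes. Embryo 2 was the highest of its group for 29 members among controls and for 31 among KI embryos, and control 1 was the lowest for 31. Without control 2, 7 members passed (Bhlhe41, Mxi1, Ankrd37 and Adm in addition) and 4.81% of genes. Leaving out control 1, control 3, KI 2 or KI 3 ended the calls of Pfkp and Vegfa and left Egln3 alone. Fitted on the 6 E8.5 libraries only, Vegfa alone was called, and Egln3 had an adjusted p of 0.0577.

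Of the E8.5 marker lists, endothelial genes had 5 of 8 called higher in KI, with sums of 286 to 346 CPM in controls and 392 to 553 in KI. Erythroid markers summed to 966 to 2033 in controls and 222 to 306 in KI, the larger difference of sums, with 1 of 10 called lower. The part of these lists in the 3 calls was not tested. Of the 58 related genes 4 were higher and 4 lower at E8.5, none by 2-fold. The KI effect was larger at E9.5 than at E8.5 for 29 members and smaller for 1, Angptl4 (-0.94), among 30 past the threshold (6.63% of genes), a description because it uses the E9.5 embryos. Angptl4 dropped out of the 30 when any 1 of 9 of the embryos was left out, Ankrd37 without E8.5 KI 1 or E9.5 control 1, and Bnip3 without E9.5 control 2. Among the 30 the largest differences of effects were 3.30 for Ppp1r3c, 3.18 for Bhlhe41, 2.99 for Adm, 1.98 for Pfkp, 1.93 for Ankrd37 and 1.93 for Bnip3. Ddit4 (2.55) and Bhlhe40 (2.36) had larger values than the last 3 and were not among the 30.

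Control embryos of the 2 stages are given as a description with no p-value, because the E9.5 controls also enter the comparison that chose the list. From E8.5 to E9.5, 22 members were lower and 2 higher past the threshold (24 of 36, against 24.2% of genes), with a median log2 fold change of -0.52, and nothing is read from the count. Slc2a3 (-1.77), Slc2a1 (-1.06), Ppp1r3c (-1.63), Bhlhe41 (-1.39) and Pfkp (-1.21) were lower at E9.5. The glycolytic enzymes other than Hk1 (0.35) were lower too. Angptl4 (0.66) and Mxi1 (0.46) were higher. Vegfa (-0.05), Kdm3a (-0.06) and Bhlhe40 (-0.01) had values near 0. Of the tissue markers, 9 of 12 neuron and 8 of 10 neural progenitor genes were higher at E9.5, and 8 of 11 endoderm and 5 of 8 trophoblast genes lower; their part in the members' values was not tested. Among related genes past the threshold Hk3 (3.86), Pklr (3.22), Ldhb (1.31) and Mpc1 (1.30) were highest relative to E8.5, and Aldoc (-1.30) and Stc2 (-1.13) lowest.

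In neural cultures the list was lower in KI neurons at day 16 and little changed in KI progenitors at day 8. At day 16, 32 members fell in KI and 1 rose (33 of 36, against 46.9% of genes), and the median log2 fold change was -1.13 against 0.09 over all genes tested. At day 8, 6 members fell and none rose (16.7% of 36, against 19.5% of genes), with a median of 0.05. They were Slc2a1, Pfkp, Car9, P4ha2, Angptl4 and Ndrg1, of which DESeq2 did not call Car9 and Angptl4. The day 8 flox libraries differed from each other less than any other pair of one group (1.5 by chi-square over degrees of freedom, where the other pairs had 2.76 or more), and may not be separate cultures.

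Of the 7 oxygen-sensing and transcription genes, 6 fell at day 16. Egln3 measured, in CPM, 20.0 and 19.1 in flox and 21.0 and 32.4 in KI at day 8, and 26.7 and 26.7 in flox and 9.05 and 10.1 in KI at day 16, a day 16 log2 fold change of -1.48 ± 0.17 (SE, adjusted p = 2.56e-05). Ankrd37 measured 11.9 and 11.6 in flox and 8.97 and 14.0 in KI at day 8, and 9.06 and 11.1 in flox and 2.02 and 4.64 in KI at day 16 (-1.58 ± 0.36 SE, adjusted p = 0.00859). At day 8 the KI clones lay on both sides of flox in Ankrd37 and above it in Egln3, and neither gene was called. Egln1 (-0.58), Bhlhe40 (-0.97), Bhlhe41 (-0.61) and Kdm3a (-0.97) fell by less, and Mxi1 did not pass (-0.08). In flox cells Bhlhe41 rose from day 8 to day 16 (1.60 ± 0.20 SE, adjusted p = 1.07e-05), from 2.90 and 2.75 to 7.64 and 9.53 CPM, and its day 16 KI values were 5.60 and 5.61. The day 16 call of Bhlhe41 was lost without either KI clone or without flox library 2, and that of Ankrd37 without flox library 2.

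The transporters parted. Slc2a1 measured, in CPM, 1202 and 1204 in flox and 449 and 596 in KI at day 8, and 84.6 and 103 in flox and 25.7 and 28.2 in KI at day 16. On the log2 scale its fall in KI progenitors was -1.20 ± 0.14 (SE, adjusted p = 5.31e-05). In KI neurons it was -1.80 ± 0.14 (SE, adjusted p = 1.54e-06), on top of a fall in flox over the interval (-3.68). Slc2a3, the form used by neurons, measured 221 and 214 in flox and 148 and 259 in KI at day 8, and 197 and 193 in flox and 169.9 and 189.7 in KI at day 16 and passed at neither day.

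At day 16, 9 of the 11 glycolytic enzymes fell. Hk2 measured, in CPM, 106 and 109 in flox and 118 and 159 in KI at day 8, and 89.4 and 99.4 in flox and 14.7 and 25.6 in KI at day 16 (-2.23 ± 0.25 SE, adjusted p = 0.000271). Ldha, which turns pyruvate into lactate, measured 1184 and 1191 in flox and 1156 and 1563 in KI at day 8, and 791 and 832 in flox and 262 and 345 in KI at day 16 (-1.42 ± 0.15 SE, adjusted p = 1.63e-05). Eno1 (enolase) measured 2498 and 2506 in flox and 2726 and 3319.9 in KI at day 8, and 1739.6 and 1881 in flox and 627 and 803 in KI at day 16 (-1.34 ± 0.13 SE, adjusted p = 8.22e-06). In these enzymes both day 16 KI clones lay far below both flox libraries, and at day 8 none of them was called. Tpi1 (triosephosphate isomerase) measured 793 and 793 in flox and 763 and 968 in KI at day 8, and 551 and 575 in flox and 249 and 299 in KI at day 16 (-1.04 ± 0.12 SE, adjusted p = 4.19e-05). The others fell by log2 fold changes of -0.97 (Pfkl) to -0.53 (Gapdh). Hk1, the constitutive hexokinase of brain, measured 64.7 and 67.8 in flox and 53.3 and 61.9 in KI at day 8, and 381 and 449 in flox and 499 and 572 in KI at day 16, was the only member higher in KI at day 16 (0.37 ± 0.11 SE, adjusted p = 0.0189), and rose from day 8 to 16 in flox by 2.65. That call was lost without flox library 1, without clone 48 or when only the day 16 libraries were fitted. Pfkp measured 59.2 and 58.5 in flox and 27.9 and 40.6 in KI at day 8, and 276 and 291 in flox and 259 and 307 in KI at day 16: it was lower in KI at day 8 (-0.78 ± 0.15 SE, adjusted p = 0.00243), rose in flox by day 16 (2.27), and was not called at day 16.

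Regulators of glucose use also fell. Pdk1 measured, in CPM, 117 and 117 in flox and 93.2 and 144 in KI at day 8, and 129.5 and 115 in flox and 43.8 and 56.3 in KI at day 16 (-1.29 ± 0.19 SE, adjusted p = 0.000375 at day 16). Pfkfb3 measured 107 and 106 in flox and 95.6 and 126 in KI at day 8, and 220.0 and 224 in flox and 96.9 and 121 in KI at day 16 (-1.03 ± 0.13 SE, adjusted p = 7.55e-05), and its rise in flox from day 8 to 16 was 1.06. Ppp1r3c measured 12.2 and 13.0 in flox and 7.66 and 16.5 in KI at day 8, and 10.8 and 10.3 in flox and 3.59 and 5.00 in KI at day 16 (-1.30 ± 0.33 SE, adjusted p = 0.0135), a call lost without either day 16 flox library. Day 8 values of clones 27 and 48 straddled flox in Ppp1r3c and Pdk1. Of the mitochondrial genes Ak4 measured 74.3 and 73.4 in flox and 68.5 and 88.9 in KI at day 8, and 34.5 and 33.4 in flox and 9.64 and 12.9 in KI at day 16 (-1.59 ± 0.15 SE, adjusted p = 5.53e-06). Bnip3 measured 153 and 157 in flox and 93.0 and 168 in KI at day 8, and 156 and 123 in flox and 60.3 and 84.3 in KI at day 16 (-0.95 ± 0.31 SE, adjusted p = 0.0449), and Higd1a fell by 0.45 ± 0.16 (SE, adjusted p = 0.037) on the log2 scale. Both of these calls were lost without any 1 of the 4 flox libraries of days 8 and 16 or without the day 16 library of clone 27.

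Car9, the surface carbonic anhydrase, was close to absent: it measured, in CPM, 0.703 and 0.706 in flox and 0.266 and 0.28 in KI at day 8, and 0.263 and 0.2 in flox and 0.0408 and 0 in KI at day 16, with 2 reads in clone 27 and none in clone 48 at day 16, where a count of 0 allows up to 0.05 CPM. Its fall at day 16 had an adjusted p of 0.00263 and no fold is given. At day 8 it fell by 1.36 ± 0.36 (SE, adjusted p = 0.0192) on the log2 scale, and that call was lost without any 1 of the 4 day 8 libraries. Car12 measured 4.00 and 3.97 in flox and 2.42 and 4.93 in KI at day 8, and 2.65 and 2.17 in flox and 0.835 and 1.10 in KI at day 16 (-1.32 ± 0.32 SE, adjusted p = 0.00477 at day 16, a call lost without flox library 1). Both genes were at or below 5 CPM throughout.

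Collagen-modifying enzymes had some of the largest falls. P4ha2 measured, in CPM, 22.1 and 23.2 in flox and 11.6 and 17.0 in KI at day 8, and 37.7 and 39.4 in flox and 5.83 and 7.37 in KI at day 16. It fell in KI progenitors (-0.66 ± 0.16 SE, adjusted p = 0.0113) and further in KI neurons (-2.54 ± 0.17 SE, adjusted p = 4.2e-07). P4ha1 measured 125 and 124 in flox and 108 and 148 in KI at day 8, and 139 and 120.1 in flox and 30.4 and 35.7 in KI at day 16 (-1.97 ± 0.14 SE, adjusted p = 9.1e-07). Plod2 measured 109 and 107 in flox and 80.9 and 127 in KI at day 8, and 56.0 and 44.2 in flox and 19.8 and 20.0 in KI at day 16 (-1.33 ± 0.19 SE, adjusted p = 0.000374). All 3 had day 16 KI values below the flox values, and the day 8 call of P4ha2 was lost without flox library 2 or clone 27. Among secreted factors Vegfa measured 242 and 247 in flox and 218 and 241 in KI at day 8, and 423 and 452 in flox and 164 and 124 in KI at day 16 (-1.61 ± 0.12 SE, adjusted p = 1.45e-06); it rose in flox from day 8 to 16 (0.84), and the KI clones at day 16 stood below their own day 8 values. Adm measured 6.33 and 7.78 in flox and 3.53 and 6.69 in KI at day 8, and 2.19 and 2.38 in flox and 0.367 and 0.398 in KI at day 16 (-2.57 ± 0.35 SE, adjusted p = 0.000104). Angptl4 measured 1.23 and 1.26 in flox and 0.577 and 0.499 in KI at day 8, and 0.58 and 0.6 in flox and 0.183 and 0.114 in KI at day 16 and fell at both days (-1.21 ± 0.25 SE, adjusted p = 0.00437 and -1.98 ± 0.35 SE, adjusted p = 0.000756). Adm and Angptl4 stood below 1 CPM in both KI clones at day 16. Of the stress genes, Ndrg1 measured 12.6 and 12.8 in flox and 4.55 and 5.21 in KI at day 8, and 70.0 and 75.6 in flox and 41.8 and 35.2 in KI at day 16, lower in KI at both days (-1.37 ± 0.12 SE, adjusted p = 8.35e-06 and -0.92 ± 0.11 SE, adjusted p = 3.31e-05) while rising in flox (2.52). Ddit4 measured 278 and 274 in flox and 254 and 343 in KI at day 8, and 616 and 750.4 in flox and 368 and 219.5 in KI at day 16 (-1.22 ± 0.24 SE, adjusted p = 0.00395).

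The effect of KI was not the same in neurons as in progenitors for 28 members by the test of the difference (33.2% of genes). It was more negative at day 16 for 26 of them, led by Hk2 (-2.60), Adm (-2.10), P4ha1 (-2.01), Egln3 (-1.93), P4ha2 (-1.88) and Ak4 (-1.68). Pfkp (0.78) and Hk1 (0.57) were the 2 exceptions, and their calls were lost without some single libraries (for Hk1 the day 16 library of clone 48 among them, for Pfkp either day 16 flox library or clone 48). In flox cells alone 10 members rose and 13 fell from day 8 to 16 (23 of 36, 63.9%, against 77.1% of genes), so the list did not move one way in flox. Of the related genes 13 rose and 22 fell in KI at day 16, with large falls in Slc16a3 (-3.10), a lactate exporter, Lox (-2.39) and Pdk4 (-1.64). At day 8, 1 rose and 10 fell, with Hk3 (-4.84), Epo (-4.17), Flt1 (-1.65) and Aldoc (-1.32) the largest. All 12 neuron markers were higher in KI at day 16, their sum being 5348 to 5439 CPM in flox and 8612 to 9492 in KI, and 7 of 8 proliferation genes were lower (276 to 291 and 200.2 to 207). Of the 8 endothelial markers Cldn5 (2.35) and Emcn (1.15) were higher in KI at day 16 and Kdr (-4.74) was lower. Of 6 tested trophoblast markers Krt18 (-4.33), Krt8 (-4.11), Ascl2 (-1.90) and Tfap2c (-1.83) were lower. That list summed to 12.8 to 14.9 CPM in flox and 4.61 to 4.75 in KI. Of 10 tested endoderm markers 4 were lower, among them Gata4 (-2.64) and Gata6 (-2.54), and Foxa2 (2.29) was higher. All 11 listed summed to 82.3 to 84.7 CPM in flox and 18.01 to 28.2 in KI. At day 8, 10 of 12 neuron markers and all 8 endothelial markers were lower in KI. The part of these markers in the members' values was not tested.

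**Figure D3:**
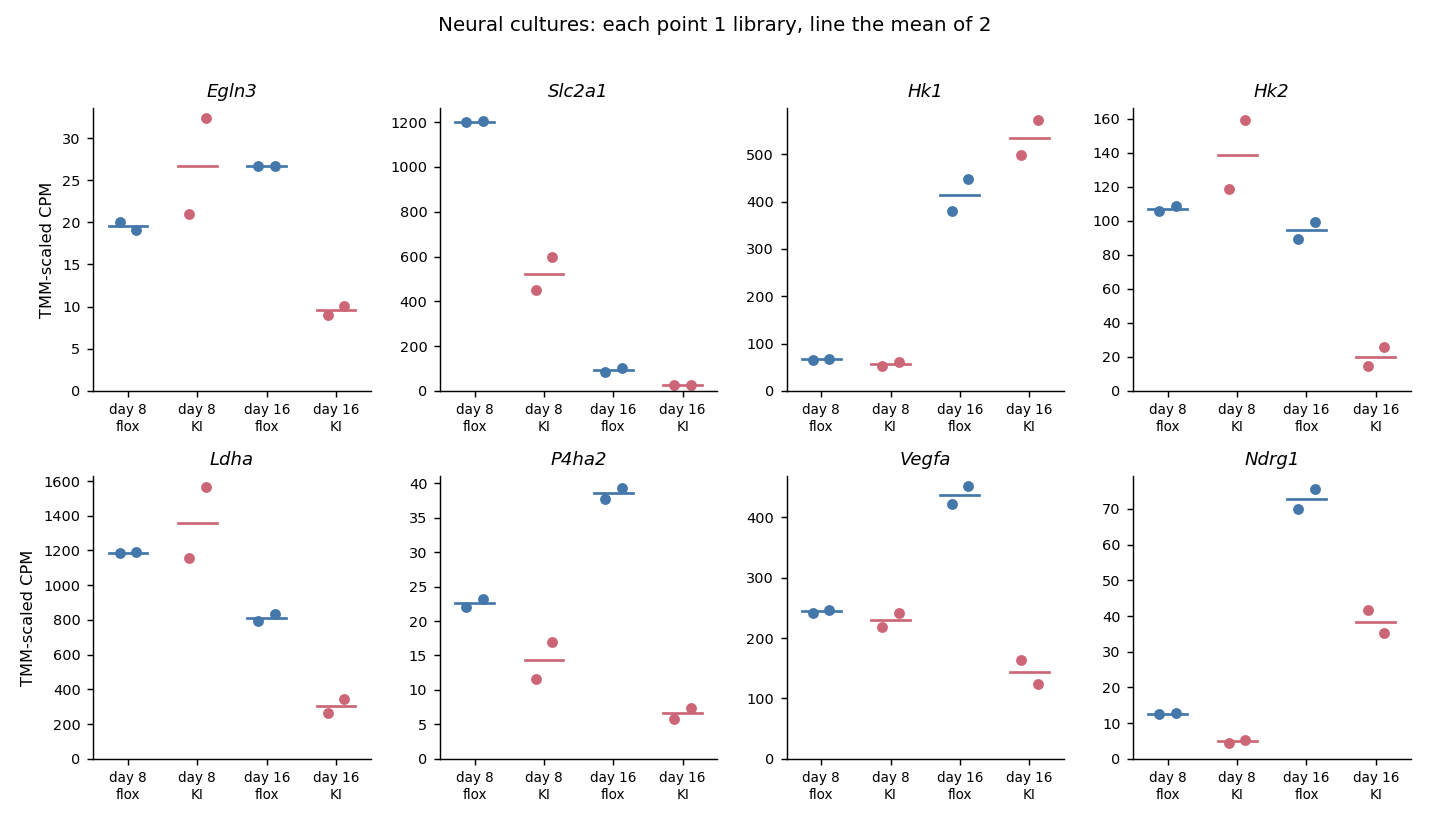
TMM-scaled CPM (vertical axes, from 0) of 8 members in the neural cultures; points are libraries, blue flox and red KI, lines means of 2. All panels but Hk1 show KI below flox at day 16, Hk1 shows the reverse, and Slc2a1, P4ha2 and Ndrg1 are also lower in KI at day 8.

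The extraembryonic cultures went in opposite directions. In TE cultures 24 members rose in KI and 4 fell (28 of 36, against 50.9% of genes; median log2 fold change 0.50). In ExEn cultures 6 rose and 19 fell (25 of 36, against 35.5% of genes; median -0.33). The KI effect itself differed between TE and ExEn for 26 members, 24 of them more positive in TE (35.3% of genes passed this test). A rise in TE together with a fall in ExEn was called for 14 members, against 457 of 15532 genes (2.94%). All 14 also fell in day 16 KI neurons, where 32 of the 36 members fell; 118 of 14920 genes (0.791%) had all 3 calls. The 14 were Bhlhe41, Kdm3a, Ankrd37, Hk2, Pfkl, Aldoa, Tpi1, Pgk1, Pgam1, Ldha, Bnip3, P4ha1, P4ha2 and Vegfa.

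Of the 7 oxygen-sensing and transcription genes, 6 rose in TE KI cells. Egln1 measured, in CPM, 53.5 and 50.9 in TE flox and 167 and 160.1 in TE KI, and 54.9 and 60.6 in ExEn flox and 55.7 and 61.9 in ExEn KI, a TE log2 fold change of 1.65 ± 0.08 (SE, adjusted p = 8.42e-10) and no call in ExEn (0.03). Egln3 measured 15.0 and 14.6 in TE flox and 55.6 and 58.4 in TE KI, and 2.50 and 3.58 in ExEn flox and 2.88 and 2.98 in ExEn KI (TE 1.94 ± 0.13 SE, adjusted p = 2.73e-08, ExEn -0.05, not called). Bhlhe40 measured 51.2 and 49.9 in TE flox and 109 and 123 in TE KI, and 64.9 and 59.7 in ExEn flox and 70.5 and 72.6 in ExEn KI (TE 1.20 ± 0.08 SE, adjusted p = 2.05e-08). In these 3 genes TE KI libraries were all above TE flox, and none of the 3 was called in ExEn. Ankrd37 measured 2.67 and 1.86 in TE flox and 8.87 and 11.1 in TE KI, and 3.10 and 2.27 in ExEn flox and 0.566 and 0.462 in ExEn KI, higher in TE KI (2.14 ± 0.28 SE, adjusted p = 1.84e-05) and lower in ExEn KI (-2.37 ± 0.38 SE, adjusted p = 0.00025). Bhlhe41 measured 3.83 and 3.08 in TE flox and 13.6 and 12.6 in TE KI, and 4.55 and 6.11 in ExEn flox and 2.17 and 1.44 in ExEn KI, with the same opposite signs (1.92 ± 0.24 SE, adjusted p = 1.13e-05 and -1.55 ± 0.28 SE, adjusted p = 0.000549). Mxi1 fell in both (-0.38 and -0.67). Kdm3a differed little in TE (0.21), a call lost under most alternatives, and fell in ExEn (-0.30), a call lost without ExEn flox library 2 or clone 27. The TE call of Mxi1 was lost without either TE flox library or clone 27.

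The transporters moved in opposite directions to each other in both cultures. Slc2a1 measured, in CPM, 2309 and 2252 in TE flox and 3119 and 3032 in TE KI, and 592 and 607 in ExEn flox and 1039 and 857 in ExEn KI and rose in both (TE 0.43 ± 0.08 SE, adjusted p = 0.00221, ExEn 0.66 ± 0.08 SE, adjusted p = 0.000397). Slc2a3 measured 4129 and 4092 in TE flox and 2421 and 3041 in TE KI, and 1983 and 1977 in ExEn flox and 1014 and 849.6 in ExEn KI and fell in both (TE -0.59 ± 0.14 SE, adjusted p = 0.0197, ExEn -1.09 ± 0.14 SE, adjusted p = 0.0036). For neither did the KI effect differ between TE and ExEn by the test of the difference (-0.23 ± 0.11 SE and 0.50 ± 0.19 SE, adjusted p = 0.149 and 0.116), which does not show that they are alike. The TE call of Slc2a1 was lost without clone 27 and that of Slc2a3 without TE flox library 1.

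Of the glycolytic enzymes, 9 rose in TE KI and Eno1 fell. Hk2 measured, in CPM, 151 and 156 in TE flox and 322 and 316 in TE KI, and 269 and 266 in ExEn flox and 127 and 137 in ExEn KI (TE 1.06 ± 0.06 SE, adjusted p = 2.93e-09, ExEn -1.02 ± 0.06 SE, adjusted p = 7.93e-09). Tpi1 measured 421 and 416 in TE flox and 880.4 and 803 in TE KI, and 289.7 and 278 in ExEn flox and 231 and 210.0 in ExEn KI (TE 1.01 ± 0.06 SE, adjusted p = 5.78e-09, ExEn -0.36 ± 0.06 SE, adjusted p = 0.000191). Ldha measured 556 and 553 in TE flox and 1073 and 1048 in TE KI, and 508 and 523 in ExEn flox and 244 and 251 in ExEn KI (TE 0.94 ± 0.04 SE, adjusted p = 5.46e-10, ExEn -1.06 ± 0.04 SE, adjusted p = 2.99e-10). In Hk2, Tpi1 and Ldha every TE KI library lay above TE flox and every ExEn KI library below ExEn flox. Pfkl measured 291 and 279.7 in TE flox and 404 and 407 in TE KI, and 144 and 141 in ExEn flox and 62.4 and 68.3 in ExEn KI (TE 0.51 ± 0.06 SE, adjusted p = 2.78e-06, ExEn -1.13 ± 0.06 SE, adjusted p = 5.21e-09). Eno1 measured 2194 and 2174 in TE flox and 1586 and 1787.3 in TE KI, and 1576 and 1545 in ExEn flox and 941 and 1142 in ExEn KI and fell in both (TE -0.37 ± 0.10 SE, adjusted p = 0.0171, ExEn -0.58 ± 0.10 SE, adjusted p = 0.00391). Hk1 rose in both, by 0.42 in TE and 0.58 in ExEn. The remaining enzymes had log2 fold changes of 0.18 to 0.74 in TE, apart from Pfkp, which passed in neither (-0.20 and 0.69). The TE calls of Eno1 and Gapdh were lost without clone 27 and TE flox library 2, in that order.

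Ppp1r3c, the glycogen regulator, measured, in CPM, 1.04 and 0.334 in TE flox and 4.47 and 3.13 in TE KI, and 0.6 and 0.58 in ExEn flox and 0.566 and 0.103 in ExEn KI, a rise of 2.47 ± 0.57 (SE, adjusted p = 0.00233) in TE on few reads. Pdk1 passed in neither culture (0.02 and 0.08), and Pfkfb3 rose in ExEn (0.41 ± 0.10 SE, adjusted p = 0.00638, TE 0.24), a call lost without ExEn flox library 2. Bnip3 measured 53.3 and 55.9 in TE flox and 241 and 244 in TE KI, and 27.04 and 27.9 in ExEn flox and 18.1 and 18.4 in ExEn KI (TE 2.15 ± 0.06 SE, adjusted p = 3.34e-11, ExEn -0.59 ± 0.07 SE, adjusted p = 2.73e-05). Ak4 measured 78.5 and 78.1 in TE flox and 80.8 and 98.2 in TE KI, and 47.6 and 53.2 in ExEn flox and 16.9 and 17.2 in ExEn KI, lower in ExEn KI (-1.56 ± 0.10 SE, adjusted p = 5.77e-08) and not called in TE (0.19). Car12 measured 1.12 and 1.15 in TE flox and 5.31 and 4.95 in TE KI, and 5.35 and 3.85 in ExEn flox and 5.71 and 4.62 in ExEn KI and rose in TE (2.17 ± 0.29 SE, adjusted p = 2.48e-05). Car9 passed in neither (-0.48 and 0.28).

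P4ha1 measured, in CPM, 54.6 and 57.9 in TE flox and 147 and 168 in TE KI, and 151 and 158 in ExEn flox and 48.4 and 67.4 in ExEn KI (TE 1.48 ± 0.14 SE, adjusted p = 3.59e-05, ExEn -1.42 ± 0.14 SE, adjusted p = 0.0001). P4ha2 measured 28.9 and 23.2 in TE flox and 89.0 and 81.7 in TE KI, and 63.4 and 59.4 in ExEn flox and 51.2 and 44.7 in ExEn KI (TE 1.72 ± 0.11 SE, adjusted p = 2.07e-08, ExEn -0.36 ± 0.10 SE, adjusted p = 0.0169). Plod2 measured 77.5 and 84.8 in TE flox and 66.4 and 71.4 in TE KI, and 289 and 294 in ExEn flox and 165 and 161 in ExEn KI and fell in both (TE -0.24 ± 0.06 SE, adjusted p = 0.00696, ExEn -0.84 ± 0.06 SE, adjusted p = 1.65e-07). P4ha1 and P4ha2 thus rose in TE while Plod2 fell, and the ExEn call of P4ha2 and the TE call of Plod2 were lost with single libraries left out (for P4ha2 either ExEn flox library or clone 48, for Plod2 TE flox library 2). Vegfa measured 164 and 165 in TE flox and 229 and 238 in TE KI, and 71.7 and 73.3 in ExEn flox and 44.5 and 41.4 in ExEn KI (TE 0.51 ± 0.06 SE, adjusted p = 7.42e-06, ExEn -0.75 ± 0.07 SE, adjusted p = 6.72e-07). Adm measured 2.63 and 3.79 in TE flox and 3.27 and 5.76 in TE KI, and 2.50 and 4.22 in ExEn flox and 11.7 and 13.9 in ExEn KI, higher in ExEn KI (1.93 ± 0.32 SE, adjusted p = 0.000382). Angptl4 measured 1.60 and 0.78 in TE flox and 1.09 and 0.747 in TE KI, and 0.6 and 0.422 in ExEn flox and 4.25 and 3.08 in ExEn KI and had the largest rise of the list in ExEn (2.83 ± 0.52 SE, adjusted p = 0.000674), with no call in TE (-0.36). These were the 2 secreted factors whose KI effect was more positive in ExEn than in TE (-1.44 and -3.19 for TE minus ExEn), and the difference for Adm was not called without TE flox library 2, TE clone 27 or ExEn flox library 1. Ndrg1 measured 115 and 113 in TE flox and 658 and 595 in TE KI, and 25.2 and 22.6 in ExEn flox and 54.0 and 29.8 in ExEn KI and rose in TE (2.46 ± 0.28 SE, adjusted p = 0.00203). Ddit4 was not called in TE (0.13) and rose by 0.16 in ExEn, a call lost under DESeq2 and without several single libraries.

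Among related genes, 26 rose and 13 fell in TE KI and 11 rose and 9 fell in ExEn KI. Epas1, which encodes a HIF alpha subunit, rose in TE (1.88) and fell in ExEn (-3.20). In TE other large rises were Selenbp1 (3.14) and Pygl (2.19), and large falls were Ldhb (-2.20), Eno3 (-1.86) and Arnt2 (-1.45). In ExEn large changes were Pdk4 (1.45) and Lox (1.27) upward and Slc16a1 (-2.54) and Flt1 (-1.07) downward. Marker lists differed too: in TE KI 6 of 8 tested trophoblast markers were higher, Elf5 (-3.79) was lower, and 7 of 8 pluripotency markers lower. In ExEn KI all 11 endoderm markers were lower. Trophoblast markers were called higher in ExEn KI as well, where most called members fell: Tfap2c (2.14), Gata3 (1.84), Ascl2 (1.34), Krt18 (0.63) and Krt8 (0.25). Hand1 (-0.405) was called lower there. The 6 trophoblast markers higher in TE KI include Cdx2 (1.92 ± 0.12 SE, adjusted p = 1.39e-08). Cdx2 is the gene of the transgene that drives these cultures, and its reads thus differed between the TE groups compared. The part of these markers in the members' changes was not tested.

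**Figure D4:**
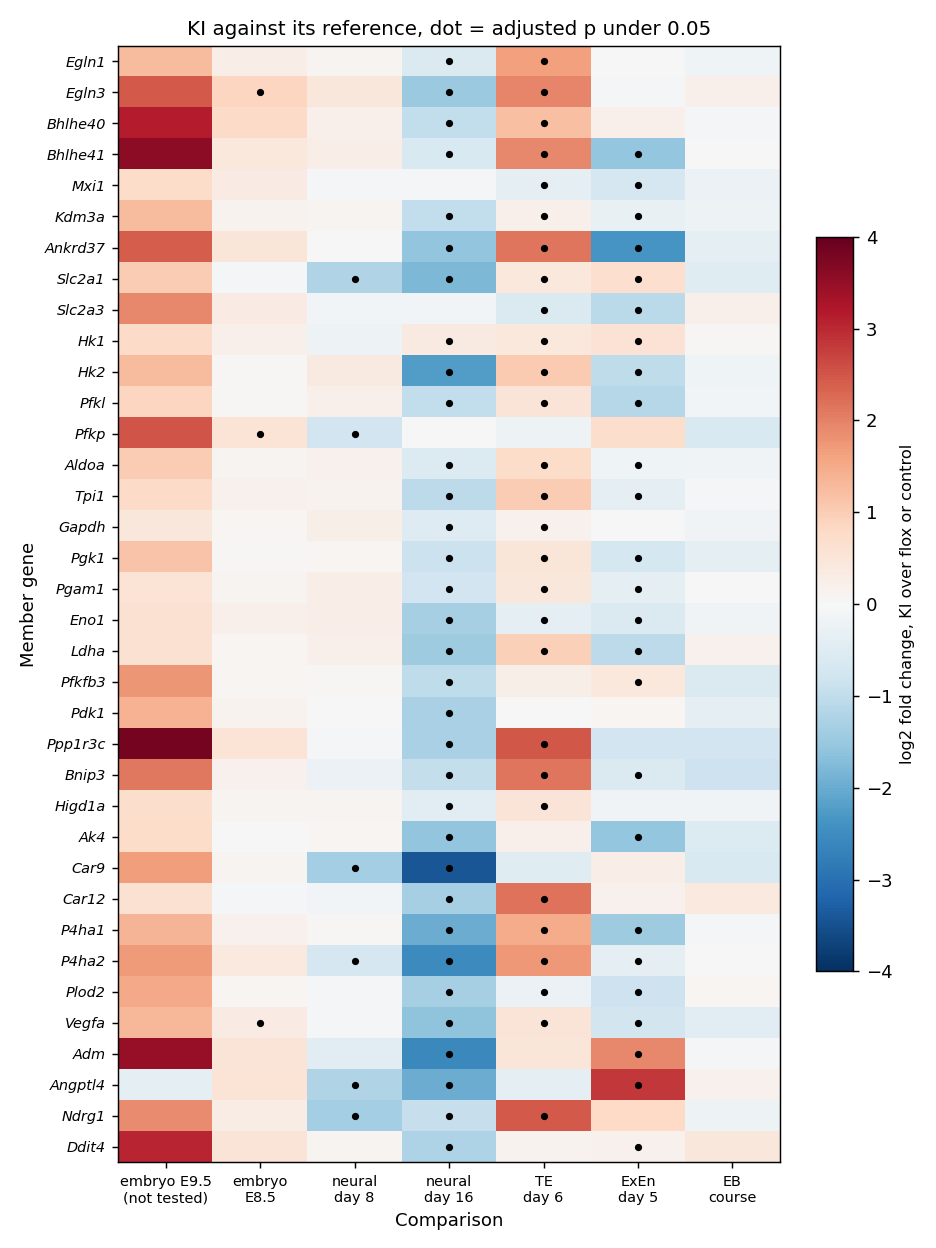
Log2 fold change of KI over its reference for the 36 members (rows) in 7 comparisons (columns), red higher and blue lower in KI; a dot marks an adjusted p under 0.05, and the E9.5 column carries no dots because it chose the list. The neural day 16 column is blue but for Hk1, Pfkp and the near-white Mxi1 and Slc2a3, the TE column is mostly red, and the EB column has no dot.

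In the EB course no member passed for KI against flox averaged over days 0, 4 and 10 by edgeR (0 of 36, against 0.73% of genes, median log2 fold change -0.14). At an unadjusted p under 0.05 there were 4 (Kdm3a, Slc2a1, Pfkfb3 and Ak4), and DESeq2 called 2 (Slc2a1 and Ak4). Without the flox library of day 4, Bnip3 was called. Single days have 1 flox library and no test, so a member was counted only if clones 27 and 48 each differed 2-fold or more from flox, both upward or both downward. At day 0 that held for 2 of 33 members with at least 1 CPM (7.75% of genes): Ddit4 was higher (39.3 CPM in flox, 161 and 161 in clones 27 and 48), and Bnip3 lower (30.4, and 8.66 and 13.3). At day 4 it held for none of 35 (5.73% of genes). At day 10 it held for 5 of 36 (7.31% of genes). Slc2a3 was then higher in both clones (382 CPM in flox, 1563 and 1063 in KI), and Pfkp, Pdk1, Ppp1r3c and Car9 were lower. At day 10 both clones lay below the single flox library for 29 of 36 members and above it for 2, against 35.7% and 37.9% of genes. At day 4 they lay below for 9 of 35 and above for 18 (42.3% and 43.9% of genes), and at day 0 below for 15 of 33 and above for 10 (46.2% and 41.8%). The median log2 ratios of the members were -0.43, 0.14 and -0.12 at days 10, 4 and 0, and over all genes 0.01, 0.01 and -0.02.

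The KI clones gave the course itself a test. From day 0 to day 4, 10 members rose and 14 fell (24 of 36, against 50.3% of genes), and from day 4 to day 10, 15 rose and 12 fell (27 of 36, against 73.3% of genes), so the list did not move as a unit. Leaving out 1 library of day 0 or 4 lowered the first count to between 11 and 15. Values at days 0, 4 and 10 follow in that order. Hk1 measured, in CPM, 156, 27.3 and 81.4 in flox, 259, 38.6 and 38.7 in clone 27 and 265, 32.7 and 54.6 in clone 48 and fell by day 4 (-2.87 ± 0.17 SE, adjusted p = 3.44e-05). Pfkp measured 434, 30.7 and 74.4 in flox, 284, 45.0 and 24.6 in clone 27 and 330.5, 40.7 and 26.5 in clone 48 (-2.84 ± 0.11 SE, adjusted p = 2.51e-06 by day 4). Ak4 measured 155, 16.5 and 35.5 in flox, 74.3, 14.4 and 26.6 in clone 27 and 88.2, 11.8 and 31.1 in clone 48 (-2.63 ± 0.15 SE, adjusted p = 1.16e-05 by day 4, 1.15 from day 4 to 10). The ESC state thus held the highest Hk1, Pfkp and Ak4 of the course in flox and KI alike. Kdm3a measured 232, 58.6 and 78.4 in flox, 167, 53.4 and 73.2 in clone 27 and 171, 61.0 and 70.2 in clone 48 (-1.56 ± 0.09 SE, adjusted p = 1.06e-05), and Hk2, with 483, 200.2 and 168 in flox, 365, 191 and 136 in clone 27 and 449.7, 213 and 138 in clone 48, fell likewise (-1.01 ± 0.11 SE, adjusted p = 0.0003).

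Other members rose. Adm was at 1 read or none in each ESC library, where a count of 0 allows up to 0.126 CPM in clone 48, and measured, in CPM, 0.06, 0.794 and 8.12 in flox, 0.0449, 1.40 and 3.53 in clone 27 and 0, 1.13 and 8.34 in clone 48, a call at day 4 for which no fold is given and a further rise of 2.24 ± 0.48 (SE, adjusted p = 0.00403) by day 10. Bhlhe41 measured 0.48, 3.33 and 9.27 in flox, 0.807, 3.11 and 6.77 in clone 27 and 0.719, 3.57 and 7.52 in clone 48 (2.13 ± 0.26 SE, adjusted p = 0.000445 by day 4, 1.10 ± 0.22 SE, adjusted p = 0.00292 from day 4 to 10). Vegfa measured 21.3, 40.1 and 489 in flox, 14.8, 24.4 and 447 in clone 27 and 23.8, 26.5 and 290.3 in clone 48 (3.86 ± 0.31 SE, adjusted p = 0.000112 from day 4 to 10). Every line had its highest Vegfa, Adm and Bhlhe41 at day 10. Car9 (2.08), Car12 (1.22) and Bnip3 (1.05) were also called higher in KI by day 4, Car9 from 0.538 and 0.18 CPM in KI ESCs. Mxi1 fell by day 4 (-0.86) and rose from day 4 to 10 (1.15). The collagen enzymes rose late: P4ha1 measured 27.5, 38.3 and 164 in flox, 30.6, 26.8 and 144 in clone 27 and 31.6, 28.5 and 223 in clone 48 (2.74 ± 0.21 SE, adjusted p = 6.42e-05). P4ha2 measured 2.04, 10.97 and 56.4 in flox, 3.05, 6.86 and 42.5 in clone 27 and 3.60, 6.37 and 85.9 in clone 48 (3.29 ± 0.36 SE, adjusted p = 0.000392), and Plod2 42.1, 45.6 and 192 in flox, 49.5, 39.7 and 212 in clone 27 and 48.8, 36.7 and 266 in clone 48 (2.65 ± 0.12 SE, adjusted p = 2.64e-06). Ppp1r3c, near 0 at day 4, measured 0.18, 0.347 and 16.7 in flox, 0.807, 0.271 and 2.91 in clone 27 and 1.21, 0.271 and 4.52 in clone 48 (3.76 ± 0.43 SE, adjusted p = 0.000151 from day 4 to 10).

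Of the later glycolytic enzymes Eno1, Ldha, Pgam1 and Gapdh (-0.94) fell after day 4, and Pgk1 (-0.13) did not pass. Eno1 measured, in CPM, 3466, 3196 and 1121 in flox, 2988, 3147 and 709 in clone 27 and 3408, 3523 and 1035 in clone 48 (-1.93 ± 0.19 SE, adjusted p = 0.000226 from day 4 to 10), and Ldha 569.9, 1197 and 779 in flox, 1089, 1246 and 426 in clone 27 and 1298, 1375 and 631 in clone 48 (-1.30 ± 0.20 SE, adjusted p = 0.00142). Pgam1, the mutase just before enolase, measured 1033, 622 and 421 in flox, 994, 744 and 299.8 in clone 27 and 1108, 734 and 386 in clone 48 (-1.10 ± 0.12 SE, adjusted p = 0.000161). Angptl4 measured 26.7, 4.42 and 1.27 in flox, 19.2, 7.98 and 0.477 in clone 27 and 21.8, 7.14 and 2.49 in clone 48 and was highest in ESCs (-2.29 ± 0.57 SE, adjusted p = 0.0122 from day 4 to 10). Pdk1 measured 137, 49.4 and 76.9 in flox, 129, 75.1 and 23.1 in clone 27 and 123, 71.0 and 36.2 in clone 48 (-1.29 ± 0.20 SE, adjusted p = 0.00125). Pfkfb3 rose instead, with 15.2, 53.9 and 101 in flox, 12.3, 29.4 and 57.1 in clone 27 and 16.8, 26.4 and 74.6 in clone 48 (1.25 ± 0.18 SE, adjusted p = 0.00072). Related genes changed on the same scale, and those named are the largest among the called ones: Flt1 (5.75), a VEGF receptor, Loxl2 (3.91), Slc16a3 (2.52) and Arnt2 (2.36) rose most by day 4, and Epas1 (-3.46), Pgam2 (-2.44), Aldoc (-1.78) and Pgm2 (-1.61) fell most. From day 4 to 10 Epas1 (4.67), Loxl2 (4.54), Lox (4.27) and Pygl (3.20) rose most and Ldhb (-2.26), Slc16a3 (-1.75) and Pkm (-1.56) fell most. Heart markers summed to 2414 CPM in day 10 flox and 264 to 379.6 in day 10 KI, and their part in the day 10 values was not tested.

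**Figure D5:**
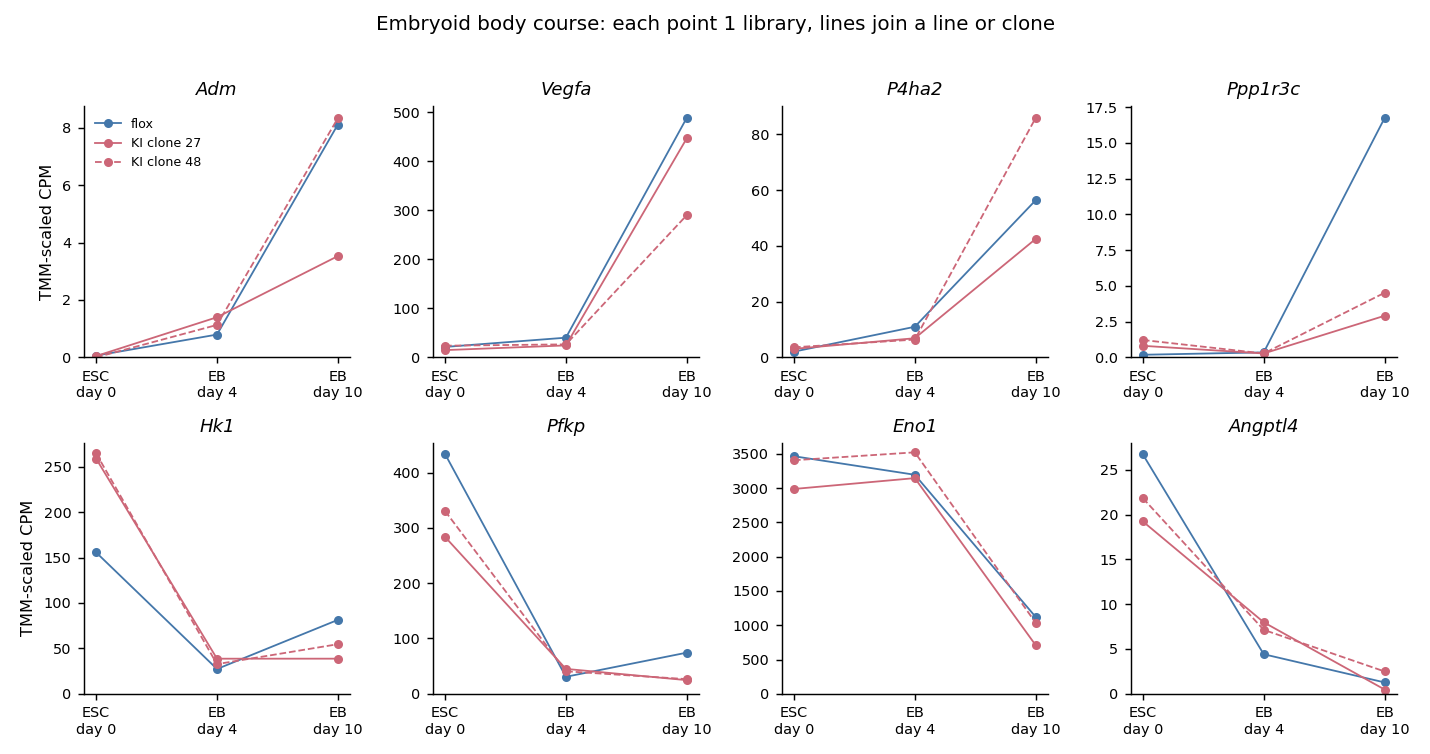
TMM-scaled CPM (vertical axes, from 0) of 8 members at days 0, 4 and 10 of the EB course; blue is the flox line, solid red clone 27 and dashed red clone 48. Adm, Vegfa, P4ha2 and Ppp1r3c end highest at day 10, Hk1, Pfkp and Angptl4 start highest in ESCs, and Eno1 drops after day 4.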

How the data were processed

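The members and gene lists were chosen with earlier results of these data known. Each RNA library came as a deposited table of read counts and RPKM per RefSeq transcript accession, the RPKM being the count over length and the authors' library total. The submitters' processing notes list bcl2fastq, Bowtie2, STAR, SICER 1.1 and mm9 without saying which served RNA. The counter, annotation and use of strand are not given in the sources used here. Embryo, TE and ExEn libraries are labelled total RNA and the others polyA RNA, and per the labels' protocols all were poly(A)-selected. Of 29082 accessions 28432 matched a symbol, and the 650 others (1.27 to 2.15% of reads) were left out. The transcript with most reads stood for its gene, which gave 23109 entries. The 62 chromatin samples and 1 RNA sample, a day 8 neural culture labelled Mll3-/-;Mll4-/-, were not analysed here, and 0 count columns went unused.

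Counts were tested with edgeR 4.0.16 (limma 3.58.1, R 4.3.3): TMM scaling, the default low-count filter (minimum 10 reads), quasi-likelihood tests, and Benjamini-Hochberg adjustment over all genes tested. Libraries were fitted by system: 12 embryo, 8 neural, 8 TE and ExEn, and 9 ESC and EB libraries, with the KI intervals fitted on the 6 KI libraries of that course. The fit was tested on simulated data. Log2 ratios on single EB days used CPM plus 0.5. All 36 members could be named. Outside the EB course, values of every library are given for called members with an absolute log2 fold change of at least 1 and for some with smaller changes. In the EB course some called members are given by log2 fold change only or are not named. Related genes are named when called with at least 1.0. Some related genes are counted but not reported by name here. Alternatives were other scaling, DESeq2 1.42.0, no filter, only the libraries compared, reads summed over transcripts, each library left out, and replicate blocks. Same-numbered E8.5 embryos deviated together (correlations of 0.22, 0.261 and 0.103 over genes), so the number in the embryo names was taken to pair them; the labels do not say what it is. KI libraries of 1 clone are paired by the clone. Precision is limited by 2 or 3 libraries a group. Limits for a count of 0 use 3 reads and cover counting error only.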

Additional observations from a re-analysis of the deposited data

Results flagged for a closer look

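The KI effect differed between days of the neural cultures and between TE and ExEn cultures by the test of the difference itself in edgeR. The same difference between E9.5 and E8.5 embryos is a description, because the list was chosen with the E9.5 embryos known: 30 members were past the threshold, against 6.63% of genes. The largest differences of log2 fold change among those 30 were 3.30 for Ppp1r3c, 3.18 for Bhlhe41, 2.99 for Adm, 1.98 for Pfkp, 1.93 for Ankrd37 and 1.93 for Bnip3.

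Between day 16 neurons and day 8 progenitors 28 members passed. The largest differences among them were -2.60 for Hk2 (adjusted p = 0.000999), -2.10 for Adm (adjusted p = 0.00281), -2.01 for P4ha1 (adjusted p = 2.05e-05), -1.93 for Egln3 (adjusted p = 8.25e-05), -1.88 for P4ha2 (adjusted p = 9.4e-05) and -1.68 for Ak4 (adjusted p = 7.89e-05). In each of these 6 genes both day 16 KI clones lay below both flox libraries.

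Between TE and ExEn cultures 26 members passed. The differences, TE minus ExEn, were 4.51 for Ankrd37 (adjusted p = 5.57e-06), 3.48 for Bhlhe41 (adjusted p = 5.78e-06), 3.25 for Ppp1r3c (adjusted p = 0.0153), -3.19 for Angptl4 (adjusted p = 0.00294), 2.90 for P4ha1 (adjusted p = 1.22e-05) and 2.74 for Bnip3 (adjusted p = 1.66e-10). Ppp1r3c lost this call without TE flox library 2 or either ExEn flox library.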

How the results depend on the processing

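The number of members called stayed within 1.5 times its reported value under every alternative run, except in 3 comparisons. For KI against control at E8.5 (3 members), 1 was called when only the E8.5 libraries were fitted, 7 with the replicate block on the number in the embryo names, and 1 to 7 with single libraries left out. For the EB course (0 members), DESeq2 called 2, and leaving out single libraries gave 0 to 1. For KI EBs at day 4 against day 0 (24 members), leaving out single libraries gave 11 to 28. The replicate block gave 34 members at E9.5, 33 for the stage difference, 21 for flox day 16 against day 8 (Mxi1 and Ddit4 were lost), and 28 and 29 for the KI EB intervals. For the 2 differences of the KI effect between cultures, a replicate block on line or clone number, chosen after seeing the data, gave 31 members for day 16 against day 8 (27 of the 28 shared, Ddit4 lost) and 29 for TE against ExEn (26 shared). For KI against flox within TE, ExEn, day 8 or day 16 no paired analysis was possible because flox lines and KI clones share no number. For single genes, 6761 values were counted as the same, 271 as losing a call, 131 as gaining one and 1 as turned. Values near 0 could change sign without being counted as turned. The 1 counted was the Slc2a3 difference between day 16 and day 8. It ran from -0.37 to 0.44 with single libraries left out, the last without the day 8 library of clone 48. The causes were not tested. Depth limits the low genes (Car9, Adm, Angptl4 and Ppp1r3c in some cultures).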
